A study of Mus musculus with 8 samples.

Results

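Matricellular and adhesive glycoproteins are secreted proteins that sit in the extracellular matrix between cells and collagen fibres, bind integrins and other cell surface receptors, and tune adhesion, growth factor access and fibril assembly more than they bear load. Of 10 genes on the list (Fn1, Tnc, Tnxb, Postn, Sparc, Thbs1, Thbs2, Thbs3, Thbs4 and Matn2), 9 had a probe set annotated to them alone. Thbs1 was not analysed here. The 9 genes were read by 12 probe sets, out of 17097 genes with a value. Where a gene had several, its brightest probe set on average stood for it. The list was drawn up from gene family membership, with earlier results of these data known.

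Dermal fibroblasts were taken from 4 old mice (18 months) and 4 young mice (2 months), with 1 mouse of each age collected per day and 1 array per animal. Strain, sex and genotype are not given in the sources used here, and the same extraction and labelling protocol is given for both ages. Skin without its subdermis was digested with collagenase, and cells were sorted that carried Pdgfra and CD34 and lacked CD45, CD117, CD24, CD31 and EpCam. The values are log2 levels after robust multi-array averaging (RMA), and a difference of 1 is a doubling. Each probe set has its own response, so levels are compared between ages and not between genes. Fewer cells of a type and less RNA per cell cannot be told apart in such bulk samples.

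In the adult dermis, fibronectin (Fn1) is the adhesive scaffold on which other matrix is laid down, and tenascin-X (Tnxb) and Sparc take part in the assembly of collagen fibrils. Tenascin-C (Tnc) and periostin (Postn) are best known from wounds, hair follicles and developing skin. Thrombospondins are oligomeric calcium-binding proteins. Thbs2 forms trimers, inhibits vessel growth and is needed for normal collagen fibrils in mouse skin, whereas Thbs3 and Thbs4 form pentamers. Matrilin-2 (Matn2) is a filament-forming adaptor protein of loose connective tissue and basement membranes.

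In old fibroblasts Thbs2 rose, Sparc and Matn2 fell, and the other 6 measured genes did not pass the test. The call was an adjusted p under 0.05 from limma with Benjamini-Hochberg adjustment over all 17097 genes, a threshold passed by 17.5% of them (9.87% higher and 7.66% lower in old). The balance of directions depended on the scaling: 1688 genes were called higher and 1310 lower as deposited, 1470 and 1430 after median centring, and 1490 and 1681 after a further quantile normalization. The median log2 difference was -0.11 over the 9 genes and 0.01 over all genes.

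**Figure D1:**
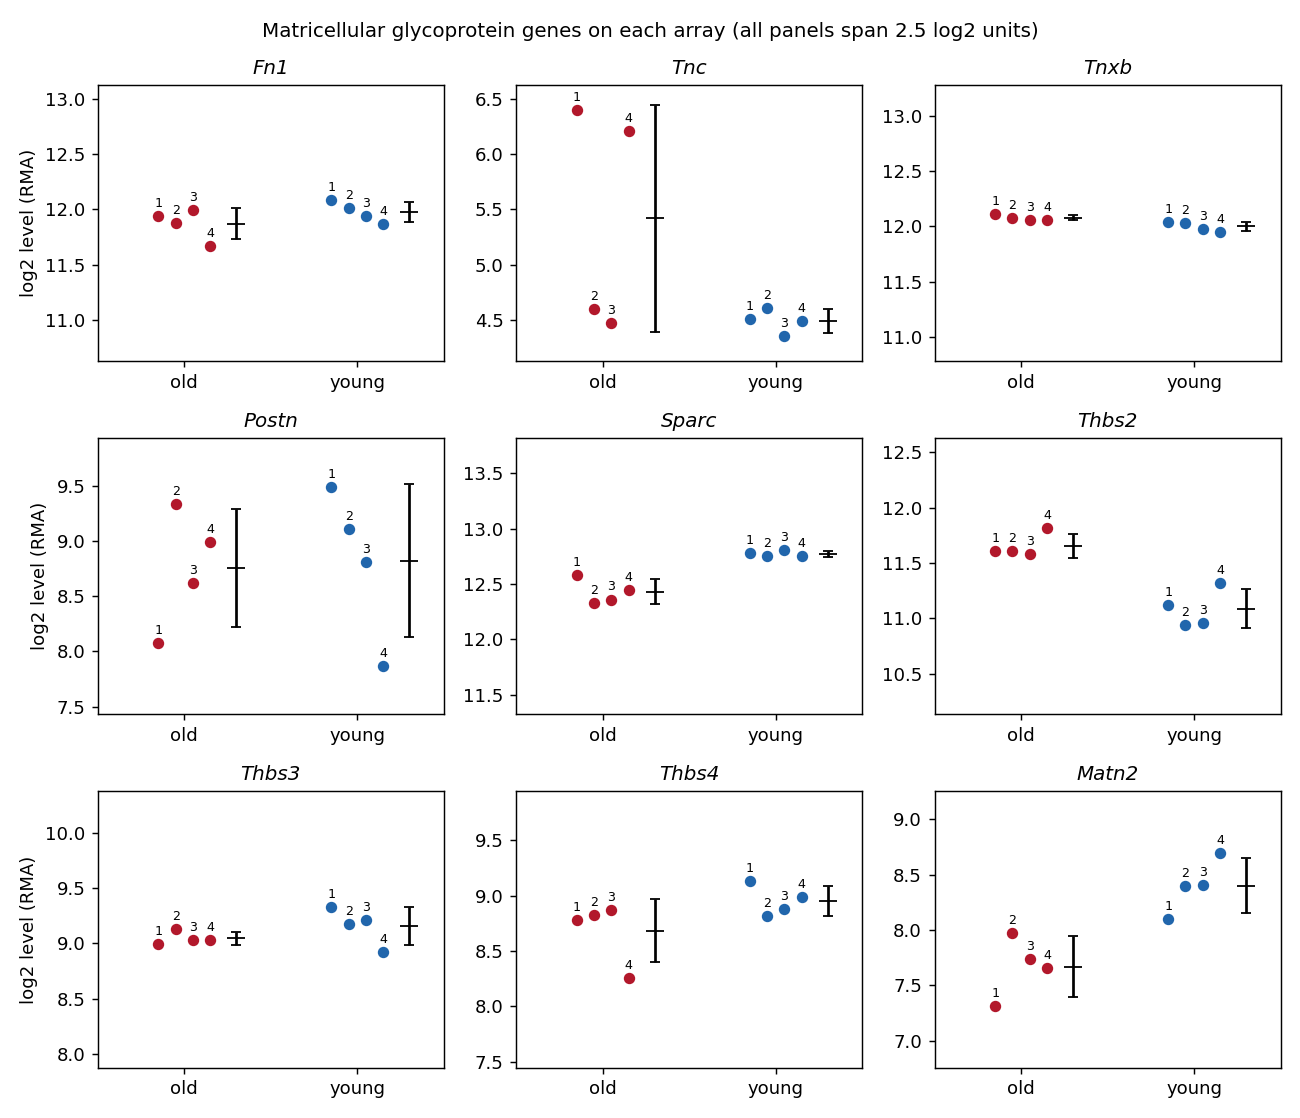
Log2 level of the 9 genes on each array, in old (red, left) and young (blue, right) mice. Points are single arrays numbered by specimen, black bars are the mean and SD of 4 arrays, and all panels span 2.5 log2 units. The groups are apart for Thbs2, Sparc, Matn2 and, by a small margin, Tnxb. Tnc is raised in old specimens 1 and 4 alone.

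Thbs2 was higher in every old animal. Its log2 levels were 11.61, 11.61, 11.58 and 11.82 in old mice 1 to 4, against 11.12, 10.94, 10.96 and 11.32 in young mice 1 to 4. The lowest old value lay above the highest young value, as was so for 11.7% of all genes, and old mouse 4 stood above the other old mice. The mean was 11.65 ± 0.11 in old and 11.08 ± 0.18 in young mice (SD, n = 4 each). The log2 difference was 0.57 ± 0.10 (SE), or 1.48-fold, with a limma adjusted p of 0.00304. A second, dimmer Thbs2 probe set gave 10.76, 10.75, 10.71 and 11.22 in old mice, against 9.99, 9.83, 9.76 and 10.31 in young mice. It differed by 0.89 ± 0.14 (SE; 1.85-fold, limma adjusted p = 0.00362 over all 45141 probe sets, of which 13.1% were called). Both probe sets were thus called in the same direction, and in both the highest array of each age was that of specimen 4. The first probe set lies near the top of the measured range (13.04), where differences can be compressed. Whether this bears on the 2 sizes was not tested.

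Thbs3 and Thbs4, the pentamer-forming thrombospondins, did not pass the test. Thbs3 had 8.99, 9.13, 9.03 and 9.03 in old mice, against 9.33, 9.17, 9.21 and 8.92 in young mice. All 4 old values lay within the young range, and the difference was -0.11 with a 95% confidence interval of -0.31 to 0.08 (limma adjusted p = 0.443). Thbs4, known from tendon and muscle matrix, had 8.78, 8.83, 8.87 and 8.26 in old mice, against 9.13, 8.82, 8.88 and 8.99 in young mice. The groups overlapped, and old mouse 4 was the lowest of all 8. The difference was -0.27 with an interval of -0.57 to 0.03 (limma adjusted p = 0.209).

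Read on the same array, the gap between Thbs2 and either relative was wider on average in old mice. The log2 difference Thbs2 minus Thbs3 averaged 2.61 ± 0.13 in old and 1.93 ± 0.32 in young mice (SD, n = 4 each), a shift of 0.68 ± 0.17 (SE). The difference Thbs2 minus Thbs4 averaged 2.97 ± 0.40 in old and 2.13 ± 0.14 in young mice, a shift of 0.84 ± 0.21 (SE). Thbs3 minus Thbs4 shifted by 0.16 ± 0.17 (SE). The pairs were chosen after the values were seen, so these shifts are a description with no test.

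Sparc, a collagen-binding counter-adhesive protein, was lower in every old animal by its brighter probe set. Its levels were 12.58, 12.33, 12.36 and 12.45 in old mice, against 12.78, 12.75, 12.81 and 12.75 in young mice. The old values all lay below the young ones, as was so for 9.66% of all genes, and the young animals lay within a narrow band. The mean was 12.43 ± 0.11 in old and 12.77 ± 0.03 in young mice (SD, n = 4 each). The log2 difference was -0.34 ± 0.07 (SE), or 1.27-fold lower in old, with a limma adjusted p of 0.00733. The second Sparc probe set had 12.06, 11.97, 12.15 and 12.04 in old mice, against 12.20, 12.22, 12.16 and 12.15 in young mice. Its groups met at 12.15, and its difference of -0.13 ± 0.06 (SE) was not called (limma adjusted p = 0.206 over all probe sets). Both probe sets are near the top of the range, and the brighter one gave the larger difference.

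Matn2 had the largest called difference of the 9 probe sets that stand for the genes. Its levels were 7.31, 7.97, 7.74 and 7.66 in old mice, against 8.10, 8.40, 8.41 and 8.70 in young mice. All old values lay below all young values, with old mouse 1 lowest. The mean was 7.67 ± 0.27 in old and 8.40 ± 0.24 in young mice (SD, n = 4 each). The log2 difference was -0.73 ± 0.15 (SE), or 1.66-fold lower in old, with a limma adjusted p of 0.00896. Matn2 had 1 probe set, so no second reading was possible. The annotated gene 9430069I07Rik overlaps Matn2, and it differed by -0.25 (limma adjusted p = 0.0524).

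The calls of Thbs2, Sparc and Matn2 were kept under every scaling and probe set rule tried for the gene values and without any 1 array, and all were lost in 1 setting. The array's own control probe sets for non-specific binding, rich in G and C bases, were lower in old mice. Their mean was 5.53, 5.82, 6.18 and 5.78 in old mice, against 6.62, 6.34, 6.42 and 6.36 in young mice. With that mean as a covariate the differences were 0.53 for Thbs2 (limma adjusted p = 0.279), -0.49 for Sparc (0.12) and -0.61 for Matn2 (0.464). The covariate differs with age without overlap, so its part and that of age cannot be told apart by these arrays. It lowered the number of called genes to 167 of 17097.

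**Figure D2:**
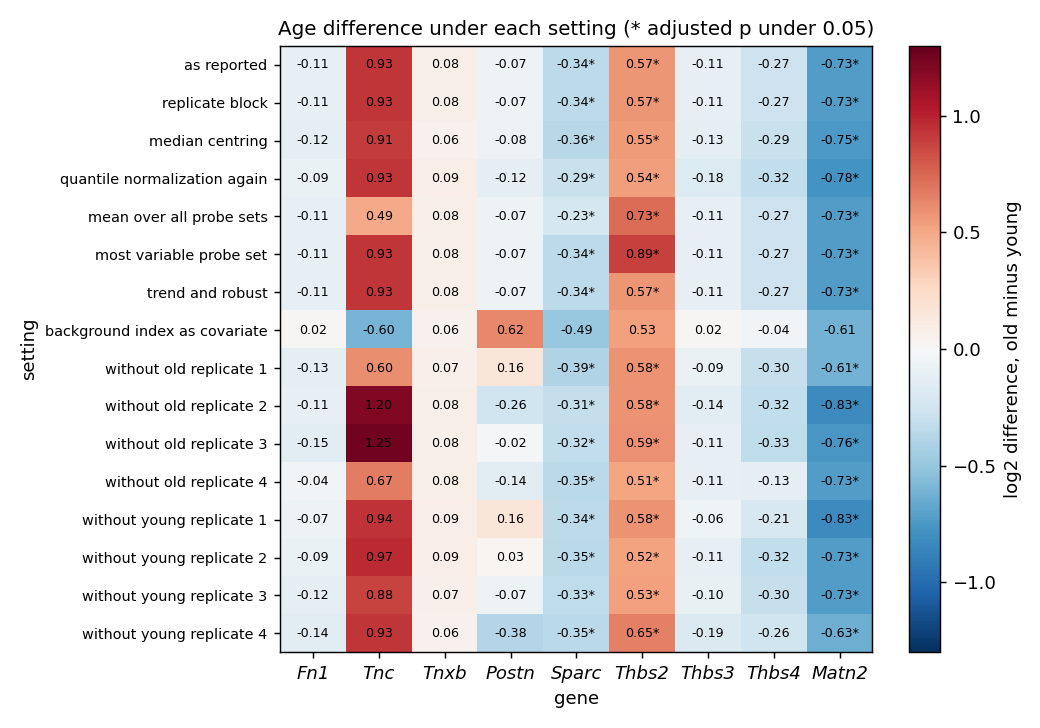
Log2 difference, old minus young, of each gene (columns) under each setting (rows), coloured from blue (lower in old) to red (higher in old). Asterisks mark an adjusted p under 0.05. Thbs2, Sparc and Matn2 carry one in every row but that of the background covariate, where their differences are 0.53, -0.49 and -0.61.

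The stretches before the annotated starts of Thbs2 and Sparc are shown because these are the called genes with an entry in the RefSeq-derived promoter table, which held 7 of the 10 listed genes. Each is the 250 bases before the start on build GRCm38.p6, written 5′ to 3′ along the gene. Capitals mark matches, on either strand, to 5 short motifs, and no matches overlap. The motifs were TATAAA (the TATA box), CCAAT (the CCAAT box), GGGCGG (the GC box), TGACTCA (an AP-1 site) and CAGAC (the core of a known Smad-binding element).
Thbs2, chr17:14694263-14694512, minus strand: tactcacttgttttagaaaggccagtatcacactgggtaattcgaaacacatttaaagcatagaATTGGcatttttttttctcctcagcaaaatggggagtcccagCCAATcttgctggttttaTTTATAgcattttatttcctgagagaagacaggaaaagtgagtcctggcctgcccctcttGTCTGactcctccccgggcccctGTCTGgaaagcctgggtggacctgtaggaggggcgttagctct
Sparc, chr11:55420081-55420330, minus strand: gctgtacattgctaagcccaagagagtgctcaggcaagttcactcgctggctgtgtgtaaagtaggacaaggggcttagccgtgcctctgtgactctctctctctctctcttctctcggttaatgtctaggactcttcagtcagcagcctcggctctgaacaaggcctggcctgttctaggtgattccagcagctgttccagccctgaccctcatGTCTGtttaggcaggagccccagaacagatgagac
The Thbs2 stretch held CCAAT on both strands (found in 33.8% of 32851 such stretches), TATAAA on the opposite strand (12.4%) and 2 copies of CAGAC on the opposite strand. CAGAC stood once in the Sparc stretch on the opposite strand, as it does at least once in 42.2% of all stretches. Neither held GGGCGG (32.7%) or TGACTCA (4.46%). G and C made up 46.8% of the Thbs2 stretch and 54% of the Sparc stretch, with a median of 52.4% over all.

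Fn1 and Tnxb did not pass the test. Fn1 had 11.94, 11.88, 11.99 and 11.67 in old mice, against 12.08, 12.01, 11.94 and 11.87 in young mice. The groups overlapped, and the difference of -0.11 had an interval of -0.29 to 0.08 (limma adjusted p = 0.45). Tnxb had 12.11, 12.08, 12.06 and 12.06 in old mice, against 12.04, 12.03, 11.98 and 11.95 in young mice. These groups did not overlap (21.3% of all genes had no overlap in either direction), but they differed by 0.08 with an interval of -0.04 to 0.20 (limma adjusted p = 0.387). Both genes lie near the top of the range, and a pseudogene, Cyp21a2-ps, overlaps Tnxb in the RefSeq table.

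Tnc was near the bottom of the range in 6 animals and raised in the other 2. Its levels were 6.40, 4.60, 4.47 and 6.21 in old mice, against 4.51, 4.61, 4.35 and 4.49 in young mice. Old mice 1 and 4 stood above all other animals, while old mice 2 and 3 lay at the young level. The SD was 1.03 in old and 0.11 in young mice, and the mean difference of 0.93 ± 0.41 (SE) did not pass (limma adjusted p = 0.156). The second Tnc probe set read 3.38 to 3.53 in old and 3.34 to 3.47 in young mice and showed no such split. It lies close to the lowest value measured (3.14), so it had little signal in which to show one.

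Postn varied more between animals than between ages. It had 8.08, 9.33, 8.62 and 8.99 in old mice, against 9.49, 9.11, 8.81 and 7.87 in young mice. The lowest young animal lay below all old ones, and the highest above them. The difference of -0.07 had an interval of -0.83 to 0.70 (limma adjusted p = 0.928). The values were thus compatible with no change and with a change of either sign within that interval.

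**Figure D3:**
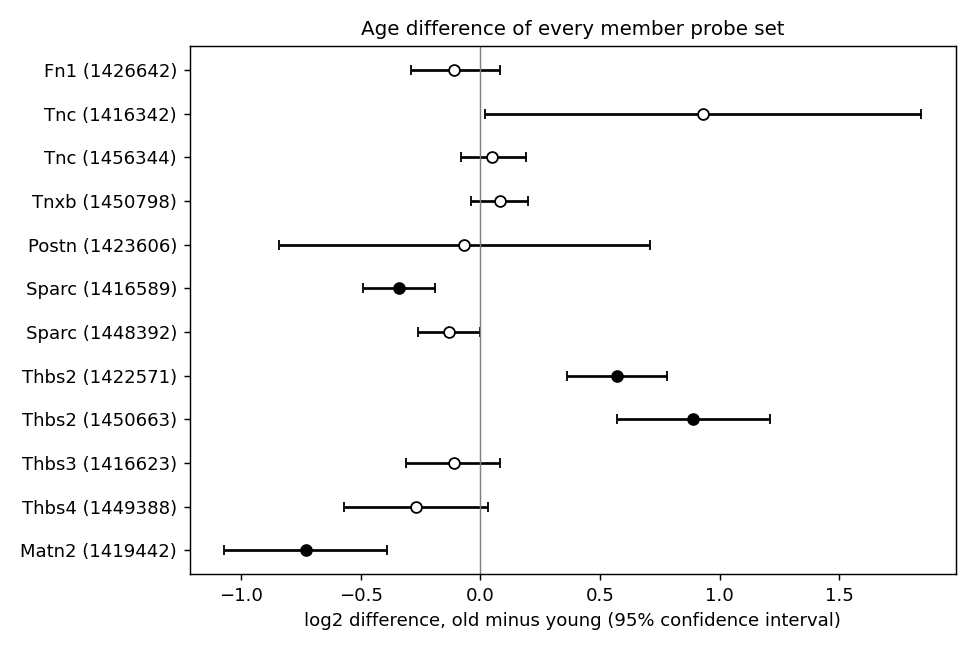
Log2 difference, old minus young, of all 12 probe sets of the 9 genes, with 95% confidence intervals from limma over all probe sets. Filled points have an adjusted p under 0.05. Both Thbs2 probe sets are filled (0.57 and 0.89), 1 of the 2 Sparc probe sets is (-0.34, against -0.13), and the intervals of Tnc and Postn are the widest.

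Relatives of these genes moved both ways. Of 25 other matricellular and adhesive genes 23 were measured, of which 6 rose, 3 fell and 14 did not pass (median difference -0.01). Over all genes 9.87% were called higher and 7.66% lower. Smoc2, a secreted calcium-binding relative of Sparc, fell to 8.97 ± 0.14 in old mice, against 10.01 ± 0.15 in young mice (SD, n = 4 each), which is a difference of -1.03 (limma adjusted p = 1.1e-04). Sparcl1, the closest relative of Sparc, rose by 0.43, with 9.29 to 9.32 in old and 8.72 to 9.00 in young mice (limma adjusted p = 0.00263). Read on the same array, Sparc minus Sparcl1 averaged 3.12 ± 0.13 in old and 3.90 ± 0.15 in young mice (SD, n = 4 each), a shift of -0.78 ± 0.10 (SE), given as a description since the pair was chosen for its opposite directions. The basement membrane protein Egflam rose by 0.94, Emilin2 rose by 0.38, Emilin1 fell by 0.53 and vitronectin (Vtn), an adhesive protein of plasma and matrix, fell by 0.36. The Vtn means (4.58 in old and 4.94 in young mice) lay below every array median (5.19 to 5.34). The call of Egflam was lost without any 1 of 4 arrays (old 2 or 4, young 2 or 3; adjusted p up to 0.0676), as was that of Vtn (old 1 or 4, young 1 or 4; up to 0.0756). Comp, the fifth thrombospondin, differed by -0.06 (limma adjusted p = 0.687), and the matrilins Matn1, Matn3 and Matn4 by -0.04 to -0.01 without passing. Their means were 3.59 to 4.78 in old and 3.63 to 4.81 in young mice, below every array median (5.19 to 5.34). There was thus little signal in these genes to compare. With the background covariate Smoc2 kept its call (-1.21, 0.0216), while Sparcl1 (0.48, 0.178), Egflam (1.27, 0.287), Emilin1 (-0.48, 0.321), Emilin2 (0.17, 0.626) and Vtn (-0.11, 0.887) did not.

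Among 19 measured receptors of these proteins, of 21 listed, 3 rose and 16 did not pass (median difference 0.10). Of all genes 9.87% were called higher. Itga8, an integrin chain that binds fibronectin and tenascin-C among others, rose to 5.82 ± 0.37 in old mice, against 4.58 ± 0.13 in young mice (SD, n = 4 each), a difference of 1.25 (limma adjusted p = 7.8e-04). Itga5, of the main fibronectin receptor, rose by 0.70 (limma adjusted p = 0.0483), a call lost without any 1 of 6 arrays (all but old 1 and young 4; adjusted p up to 0.126), after a further quantile normalization (0.0585) and with trend and robust settings (0.059). Cacna2d1, a calcium channel subunit that binds thrombospondins in the nervous system, rose by 0.57 (limma adjusted p = 3.5e-04) and kept its call with the background covariate (0.68, 0.0478), under which Itga8 lost its own (1.16, 0.163). The thrombospondin receptor Cd36 (0.17) and Cd47 (0.22) did not pass. Cd36 averaged 4.44 in old and 4.26 in young mice, below every array median (5.19 to 5.34), so it had little signal to compare.

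Of 22 matrix partners and processing factors 8 fell, 2 rose and 12 did not pass (median difference -0.14). Of all genes 7.66% were called lower and 9.87% higher. The fibril-associated collagen Col14a1 fell by 2.69, the cross-linking enzyme Lox fell by 0.85 and Col5a1, which starts collagen fibrils, fell by 0.64. Ccn2, of the CCN family of matricellular proteins, rose by 2.04, and Col12a1, another fibril-associated collagen, by 0.76. The Col12a1 means (4.88 in old and 4.12 in young mice) lay below every array median (5.19 to 5.34). With the background covariate Lox (-0.96, 0.0251) and Col5a1 (-0.80, 0.0253) kept their calls, and Col14a1 (-1.77, 0.13), Ccn2 (1.41, 0.239) and Col12a1 (0.56, 0.604) did not. Among 24 upstream regulators 5 rose, 1 fell and 18 did not pass (median difference 0.15), beside the same shares of all genes. Tgfb2 rose by 0.57, the receptors Tgfbr1 and Tgfbr3 by 0.56 and 0.32, and the mesenchymal transcription factor Prrx1 by 0.32, while of the actin-regulated coactivators Mrtfb rose by 0.21 and Mrtfa fell by 0.26. The call of Mrtfa was lost without any 1 of 5 arrays (old 1 or 4, young 1, 2 or 3; adjusted p up to 0.0883) and that of Tgfbr1 with the mean over all its probe sets (0.31, 0.0507). The call of Mrtfb was lost under both other scalings, 2 other probe set rules, the replicate block and the trend and robust settings, and without any 1 of 6 arrays (all but old 1 and young 1; adjusted p up to 0.11). With the background covariate Tgfb2 (0.45, 0.39), Tgfbr1 (0.49, 0.415), Tgfbr3 (0.48, 0.128), Prrx1 (0.33, 0.306), Mrtfa (-0.16, 0.738) and Mrtfb (0.38, 0.18) lost their calls.

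**Figure D4:**
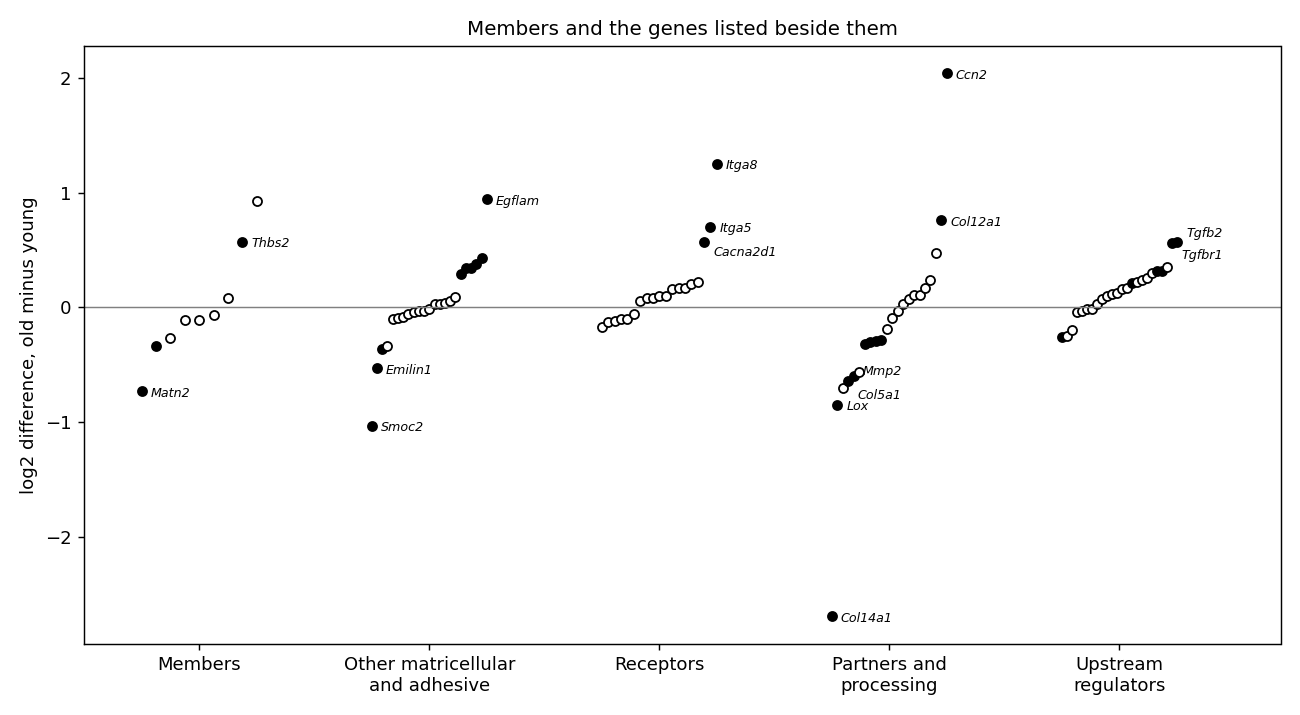
Log2 difference, old minus young, of the 9 genes and of each measured gene in 4 related lists, one point per gene. Filled points have an adjusted p under 0.05, and those of at least 0.5 in size are named. Calls higher and lower in old number 6 and 3 among other matricellular genes and 3 and 0 among receptors. They number 2 and 8 among partners and 5 and 1 among regulators. Over all genes 9.87% were called higher and 7.66% lower, a balance that depended on the scaling. The lists were drawn up with earlier results of these data known. Called differences range from -2.69 for Col14a1 to 2.04 for Ccn2.

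The sorted cells carried the fibroblast markers they were sorted for, and markers of other cell types differed with age in part. Pdgfra (8.34 to 8.64 in old, 8.20 to 8.54 in young) and Cd34 (11.57 to 11.79 in old, 11.63 to 11.81 in young) did not pass. Of 9 fibroblast markers Col3a1 alone was called (-0.28). Col1a1 (-0.19) and Lum (-0.16) were lower in old mice without overlap but did not pass. The mean level of the 9 was 11.28 to 11.39 in old and 11.42 to 11.53 in young mice, also without overlap. None of the 5 genes sorted against passed. Ptprc, which encodes CD45, was 3.80 to 3.99 in old and 3.64 to 3.76 in young mice (difference 0.17, limma adjusted p = 0.101), and Kit was 3.69 to 3.75 in old and 3.57 to 3.72 in young mice (0.09, 0.314). Epcam was 4.43 to 4.99 in old and 4.19 to 4.32 in young mice, without overlap (0.34, limma adjusted p = 0.0746), and was called after a further quantile normalization (0.0316). Pecam1, which encodes CD31, was 4.74 to 5.81 in old and 4.83 to 5.30 in young mice (0.37, limma adjusted p = 0.294), and was called without old mouse 1 (0.60, 0.0149). Cd24a was 6.21 to 7.12 in old and 6.83 to 7.58 in young mice (-0.67, limma adjusted p = 0.0515). It was called as lower in old under the replicate block (0.00643), median centring (0.0354), a further quantile normalization (0.0304), with dim genes left out (0.0401), by its most variable probe set (0.0495), without old mouse 4 (0.0169) and without young mouse 1 (0.0233). Of 10 keratinocyte markers Krt14 (1.65) and Krt5 (1.04) rose and Trp63 fell (-0.41), and their mean level was 7.41 to 8.57 in old and 6.89 to 7.86 in young mice. The highest keratinocyte mean was that of old mouse 4 (8.57), and the lowest among old mice that of old mouse 1 (7.41). Of 8 endothelial markers Tek rose (1.73) and Egfl7 (-0.31) and Plvap (-0.50) fell, with mean levels of 5.21 to 5.72 in old and 5.27 to 5.43 in young mice. Of 7 measured mural markers Kcnj8 rose (0.64), with mean levels of 6.21 to 6.62 in old and 5.82 to 6.00 in young mice. Rgs5 was higher in old mice without overlap (1.20, limma adjusted p = 0.0696) and Acta2 differed by 0.72 (0.0502), but neither passed. Des alone was lower in old (-0.18), also without passing. The highest mural mean was that of old mouse 3 (6.62), in which Rgs5 was 6.93, against 4.86, 4.95 and 4.96 in the other old mice. Of 10 immune markers Lyz2 rose (1.08) and Csf1r fell (-1.92), with mean levels of 5.11 to 5.28 in old and 5.09 to 5.26 in young mice. Of 4 measured adipocyte markers Fabp4 alone rose (3.02), with mean levels of 6.14 to 6.54 in old and 5.22 to 5.93 in young mice. Of 6 measured Schwann cell and melanocyte markers Mlana fell (-0.57). Its means of 4.33 in old and 4.89 in young mice lay below every array median (5.19 to 5.34). Of 6 tendon and cartilage markers Mkx rose (1.10). Tnmd, the brightest of the 6, was lower in old without passing (-0.47, limma adjusted p = 0.189). Without young mouse 2 Tnmd was called as lower in old (-0.69, limma adjusted p = 0.026). The calls of Krt5, Kcnj8, Mlana, Trp63, Egfl7 and Plvap were each lost without any 1 of several arrays (adjusted p up to 0.115), and Trp63 turned to 0.17 by its most variable probe set. Krt5 also lost its call with trend and robust settings (0.0854), Kcnj8 after a further quantile normalization (0.58, 0.0698), and Egfl7 with the mean over its probe sets (-0.17, 0.272). With the background covariate Tek (2.60, 0.0173) and Csf1r (-1.97, 0.00643) kept their calls. All other called markers lost theirs, among them Krt14 (1.83, 0.234), Fabp4 (3.61, 0.228), Lyz2 (1.07, 0.191), Mkx (1.04, 0.233) and Col3a1 (-0.25, 0.393). The part of these cells in the results was not tested. None of 6 muscle markers and none of 10 dissociation stress genes passed. Of the muscle markers Tnni2 (-0.24, limma adjusted p = 0.0614) was called as lower in old without young mouse 1 (-0.30, 0.0259).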

How the data were processed

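The authors deposited log2 values per probe set for 8 arrays, 1 per animal. RMA and the affy package are named in the submitters' processing notes with no version, and per the labels' protocols 6 ng of RNA was amplified for 18 cycles. RMA forces arrays to a common distribution, so a change common to most transcripts is lost. Array differences can also be compressed at both ends of the range, which was not tested here. Array medians lay between 5.19 and 5.34. Read depth does not apply, and precision is limited by the 8 arrays.

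Of 45141 probe sets, 28898 had 1 symbol in the platform annotation, 551 several and 15692 none. Of the 28898, 28689 were renamed through gene IDs in a RefSeq table (GRCm38.p6, used for names and overlaps). The age comparison used lmFit and eBayes of limma 3.58.1 (R 4.3.3) without covariates, 2-sided, with Benjamini-Hochberg adjustment. The fit was tested on simulated data. Figures used matplotlib 3.10.9.

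The members and lists were chosen with earlier results of these data known. Named were all members, up to 5 called genes of largest change and that of smallest p in each list, markers of highest mean or smallest p, and the sort genes. Others were named after their values were seen. The background index was the mean of 8 control probe sets of at least 18 G or C bases. Alternatives covered a replicate block, scaling, dim genes, probe set rules, limma settings, that index and each array left out.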

Additional observations from a re-analysis of the deposited data

Results flagged for a closer look

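In 8 of 120 groups of 4 arrays checked for the named genes, 1 array lay far from the other 3, where chance flags about 1 in 20. Old replicate 4 stood out in 4 of them. It was high for both Thbs2 probe sets (11.82 and 11.22), low for Thbs4 (8.26) and high for Epcam (4.99). Old replicate 1 was high for Ccn2 (8.46). Young replicate 1 was low for Kdr (6.02). Young replicate 2 was low for Cacna2d1 (8.93), and young replicate 1 was high for Mrtfb (9.16). Without old replicate 4 the difference of Thbs2 was 0.51 and that of Thbs4 was -0.13.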

How the results depend on the processing

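Under 9 alternatives and with each of 8 arrays left out, the same 3 members were called in every setting but the first named here. With the background index as a covariate 0 of 9 were called and 167 of all genes (2998 as reported), 68 higher and 99 lower. With every probe set tested on its own 5905 of 45141 were called, 4 of 12 among members. Leaving out 1 array gave 3 members and 2201 to 2928 genes. With the covariate Fn1 turned to 0.02, Tnc to -0.60, Postn to 0.62, Thbs3 to 0.02, Dcn to 0.05, Jun to 0.01 and Ngfr to 0.02 (0.00 over all its probe sets), none of them called. Without single arrays Postn ranged from -0.38 to 0.16, Kdr from -0.32 to 0.35 and Ngfr from -0.11 to 0.11. Trp63 read by its most variable probe set gave 0.17. The cause was not tested. Of 27 other called genes named by the rule, 6 kept their call with the covariate. A replicate block changed no member's call (3106 genes called). Same-numbered old and young arrays correlated by 0.285, 0.052, -0.044 and 0.224 in their deviations, and different-numbered ones by -0.255 to 0.213. The values for numbers 1 and 4 thus lay above all different-numbered ones, and those for 2 and 3 did not. The labels do not tie the number to the collection day, so the numbers were not taken as pairs.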

Other observations

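Tnc was alone in how far old replicates 1 and 4 together lay above the other 6 arrays, the only split that was counted over all genes. It was the 1 gene of 17097 in which old replicates 1 and 4 both lay at least 1 log2 unit above each of the other 6 arrays, the gap being 1.60. These 2 arrays were the highest 2 by any margin for 1713 genes (10%). Among the 168 measured genes of all lists used here, 16 (9.52%) had that order, which is about the share of all genes. After Tnc the largest gaps among them were those of Wwtr1 and Col12a1 (0.24 each), Mkx (0.18), and Cd47, Itgb1 and Tgfbr1 (0.12 each). Col12a1 had 5.21, 4.27, 4.90 and 5.14 in old mice, against 4.19, 4.14, 3.97 and 4.16 in young mice. The pattern was defined on Tnc after its values were seen, and no test was made of it.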
